A study of Arabidopsis thaliana with 6 samples.

Results

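The genes described here are 3 sugar starvation genes of Arabidopsis (*Arabidopsis thaliana*), *ASN1* (also *DIN6*, AT3G47340), *DIN1* (AT4G35770) and *DIN10* (AT5G20250), and 7 trehalose phosphate synthase genes, *TPS1* (AT1G78580), *TPS5* (AT4G17770), *TPS6* (AT1G68020), *TPS8* (AT1G70290), *TPS9* (AT1G23870), *TPS10* (AT1G60140) and *TPS11* (AT2G18700). They were chosen by name, as a pathway, with earlier results of these data known, and are 10 of the 24292 genes in the table of counts. All 10 had enough counts to be among the 21140 genes that were tested. RNA-seq was performed on dissected shoot apices, the growing tip of the shoot with its youngest leaves, from plants 6 wk of age kept under SD, that is 8 h of light and 16 h of dark, at 22 °C. The groups were *val1* (the insertion line *val1-2*), *val2* (the insertion line *val2-1*) and WT (Col-0, the accession both mutants are compared with), with 2 biological replicates each and 0.5 g of apices per library. Each mutant was represented by 1 insertion line, no treatment was applied, and each library pooled the apices of several plants. The seedlings were started on medium without sucrose and then moved to soil. The hour at which the apices were collected is not given in the sources used here.

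VAL1 and VAL2 are B3 domain proteins that bind RY elements in DNA and repress genes, and VAL1 is also known as HSI2, a name given for its effect on sugar-inducible genes. *VAL1* (AT2G30470) had 12.5 and 15.7 CPM (counts scaled by TMM and library size) in *val1*, against 40.3 and 55.4 CPM in WT. *VAL2* (AT4G32010) had 150 and 164 CPM in the *val2*-labelled libraries, against 39.9 and 40.9 CPM in WT, so that its transcript was higher in the libraries labelled as its mutant. Every value given below for *val2* is therefore a value of the libraries labelled *val2*, written as *val2*-labelled libraries. The libraries held between 22635808 and 33474422 counts. A gene is said to pass the test when the quasi-likelihood test of edgeR gave it an adjusted p (Benjamini-Hochberg, over all tested genes) below 0.05, and it is called a DEG when its change was also at least 2-fold. Where libraries were scaled by their size alone and not by TMM, the median log2 fold change of all genes moved to 0.25 in *val1* and 0.08 in the *val2*-labelled libraries, against 0.04 and 0.00 with TMM, and 44.4% and 60.2% of the DEGs were lower, against 62.5% and 71.2% with TMM. The shoot meristem gene *STM*, the most abundant of its marker list, had 65.4 and 64.8 CPM in *val1*, 70.7 and 66.0 CPM in the *val2*-labelled libraries and 58.3 and 58.0 CPM in WT. Its log2 fold changes of 0.16 in *val1* and 0.23 in the *val2*-labelled libraries did not pass the test. They passed under 4 and 7 of 17 alternative fits. *CLV1* rose in *val1*, to 52.9 and 52.5 CPM, against 44.2 and 40.0 CPM in WT (0.33, adjusted p = 0.00893), a call lost without WT replicate 2 (adjusted p = 0.0894). *KNAT1* did not pass the test in either mutant, *CLV3* reached at most 6 counts and *UFO* at most 7 counts, and the last 2 were not tested. The root markers that were listed, with *WOX5* the most abundant, summed to at most 1.53 CPM in any library. *WOX5* had 0.932 and 1.46 CPM in *val1*, against 0.318 and 0.323 CPM in WT, a log2 fold change of 1.90 (SE 0.54, adjusted p = 0.0185) that did not pass without WT replicate 1 (adjusted p = 0.0834), WT replicate 2 (0.0902) or *val1* replicate 2 (0.131), and the part of root markers in the values below was not tested.

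Plant cells sense their sugar supply in part through trehalose 6-phosphate, which is made from UDP-glucose and glucose 6-phosphate and rises and falls with sucrose. Trehalose 6-phosphate inhibits SnRK1, the plant relative of the yeast Snf1 and animal AMP-activated kinases, which in turn activates genes for the use of amino acids and other reserves when sugar is scarce, partly through bZIP factors of the C and S1 groups. *ASN1*, *DIN1* and *DIN10* belong to the dark inducible genes, which are turned on in darkness and by sugar loss and are common readouts of SnRK1 activity. *TPS1* encodes the main active synthase of Arabidopsis and is needed for timely flowering. *TPS5* to *TPS11* encode class II proteins, which carry a synthase-like and a phosphatase-like domain, for which little or no synthase activity has been found, and several of which are themselves regulated by sugar.

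The 300 bases upstream of the annotated start of each gene were read from the RefSeq copy of the genome (TAIR10.1), in which all 10 genes were found. Those of 4 genes are shown, for *ASN1*, *DIN10* and *TPS11*, the genes with the largest falls in *val1*, and for *TPS5*, which rose there. They are written 5′ to 3′ on the strand of the gene and end at the base before the start, with matches to the searched motifs in capitals on either strand.
ASN1 (chr3:17441432-17441731, minus strand): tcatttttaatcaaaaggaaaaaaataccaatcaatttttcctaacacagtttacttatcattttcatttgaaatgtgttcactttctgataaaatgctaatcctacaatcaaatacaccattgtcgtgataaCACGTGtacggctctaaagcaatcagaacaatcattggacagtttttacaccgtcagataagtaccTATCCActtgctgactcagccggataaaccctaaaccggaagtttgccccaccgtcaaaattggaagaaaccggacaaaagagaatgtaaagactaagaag
DIN10 (chr5:6833264-6833563, plus strand): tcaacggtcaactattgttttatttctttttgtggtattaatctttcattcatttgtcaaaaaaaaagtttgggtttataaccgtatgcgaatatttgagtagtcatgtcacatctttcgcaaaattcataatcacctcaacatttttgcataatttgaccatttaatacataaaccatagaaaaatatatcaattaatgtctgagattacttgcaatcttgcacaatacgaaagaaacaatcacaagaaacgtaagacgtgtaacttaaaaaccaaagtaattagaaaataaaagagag
TPS11 (chr2:8108598-8108897, plus strand): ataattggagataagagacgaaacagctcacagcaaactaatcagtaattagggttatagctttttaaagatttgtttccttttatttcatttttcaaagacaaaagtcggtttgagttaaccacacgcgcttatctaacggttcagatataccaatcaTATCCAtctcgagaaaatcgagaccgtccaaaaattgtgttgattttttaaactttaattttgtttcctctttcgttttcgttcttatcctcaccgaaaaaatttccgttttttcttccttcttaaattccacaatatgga
TPS5 (chr4:9875872-9876171, plus strand): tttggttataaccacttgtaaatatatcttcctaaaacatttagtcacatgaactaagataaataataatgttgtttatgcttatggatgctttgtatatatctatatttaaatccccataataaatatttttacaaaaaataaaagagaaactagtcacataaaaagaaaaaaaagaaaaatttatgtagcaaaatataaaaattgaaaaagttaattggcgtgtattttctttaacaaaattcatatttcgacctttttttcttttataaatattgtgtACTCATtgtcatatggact
A set of 4 short motifs was searched on both strands, and no match in the 10 windows overlapped another. The G-box CACGTG, which bZIP and bHLH factors bind, was found 167 bases upstream of *ASN1* and 221 bases upstream of *TPS6*, so in 2 of the 10 windows, while 7.87% of 22041 windows of the same length upstream of protein-coding genes held it. ACTCAT, known from the proline dehydrogenase promoter as an element for S1 bZIP factors, was found in 2 windows, 19 bases upstream of *TPS5* and 35 bases upstream of *TPS6*, against 14.4% of all windows. TATCCA, known as a sugar response element of rice amylase genes, was found in 4 windows, those of *ASN1*, *TPS6*, *TPS10* and *TPS11*, against 16.5% of all windows. The RY core CATGCA, from the elements that VAL1 and VAL2 bind, was found only in the window of *TPS10*, 79 bases upstream, against 9.79% of all windows. The windows of *DIN1*, *DIN10*, *TPS1*, *TPS8* and *TPS9* held none of these motifs. The windows of *ASN1* and *DIN1* overlap a neighbouring gene. A match is a description of the sequence and says nothing of binding in these apices.

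The sugar starvation genes were lower in both mutants. *ASN1*, an asparagine synthetase that stores nitrogen as asparagine when carbon is short, had 35.5 and 60.5 CPM in *val1* and 59.7 and 80.9 CPM in the *val2*-labelled libraries, against 264 and 369 CPM in WT. All 4 mutant libraries were below both WT libraries. The log2 fold change of *ASN1* was -2.72 (SE 0.26, adjusted p = 4.73e-05) in *val1*, a mean of 15.2% of the WT level, and -2.17 (SE 0.25, adjusted p = 0.00113) in the *val2*-labelled libraries. In these bulk apices, fewer cells that express a gene and less RNA per cell cannot be told apart.

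*DIN10*, annotated in the raffinose synthase family, had the largest fall of the 10 genes in *val1*. It had 16.2 and 28.3 CPM in *val1* and 62.8 and 97.3 CPM in the *val2*-labelled libraries, against 229 and 453 CPM in WT. The 3 genotypes did not overlap, with *val1* lowest. Its log2 fold change was -3.93 (SE 0.38, adjusted p = 4.92e-05) in *val1*, so that the mean CPM was 6.52% of that in WT, and -2.09 (SE 0.35, adjusted p = 0.00503) in the *val2*-labelled libraries. That call was lost without *val2* replicate 1 (-1.80, adjusted p = 0.0552).

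*DIN1*, also known as the senescence-associated gene *SEN1*, was measured with between 62 and 946 counts per library. It had 2.51 and 8.66 CPM in *val1* and 3.01 and 3.51 CPM in the *val2*-labelled libraries, against 18.9 and 30.6 CPM in WT. Both mutants were below WT, but the *val1* replicates differed from each other 3.04-fold. *DIN1* had a log2 fold change of -2.12 (SE 0.43, adjusted p = 0.00366) in *val1* and -2.93 (SE 0.46, adjusted p = 0.00398) in the *val2*-labelled libraries. The value in *val1* depended on the replicate used, at -1.52 without *val1* replicate 1 and -3.30 without *val1* replicate 2, and it passed the test in both cases.

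**Figure D1:**
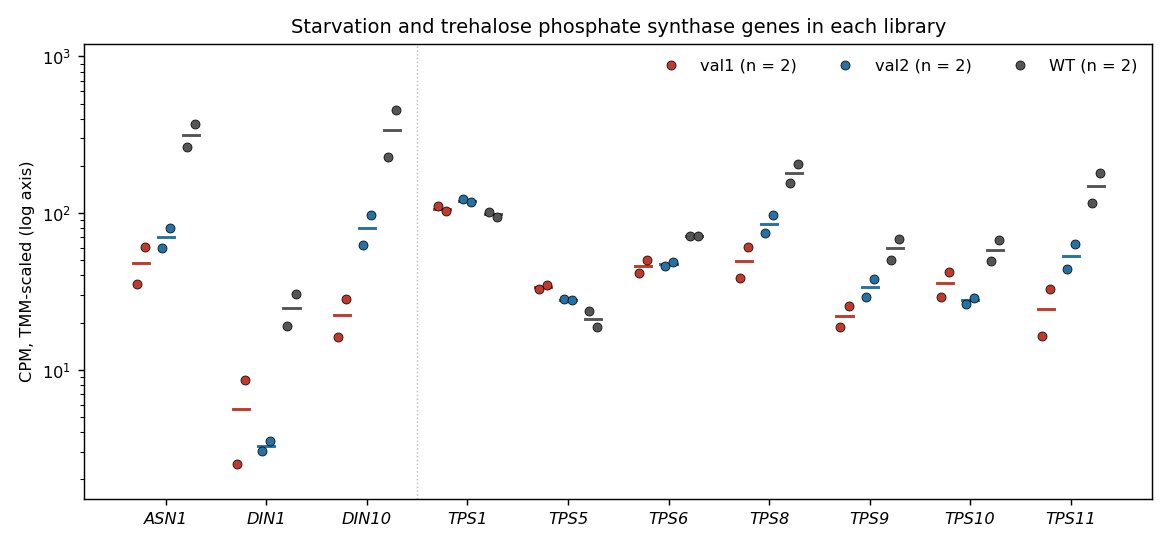
CPM (TMM-scaled counts, log axis) of the 10 genes in *val1*, the *val2*-labelled libraries and WT, from left to right within each gene. Points are libraries (n = 2 per genotype) and bars are their means. For *ASN1*, *DIN1*, *DIN10*, *TPS6*, *TPS8*, *TPS9*, *TPS10* and *TPS11*, all 4 mutant libraries lie below both WT libraries, and for *TPS1* and *TPS5* they lie above.

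Among the 7 trehalose phosphate synthase genes described here, the active synthase *TPS1* had the smallest change against WT in each mutant. *TPS1* had 111 and 103 CPM in *val1* and 123 and 117 CPM in the *val2*-labelled libraries, against 101 and 94.9 CPM in WT. Both mutants lay above WT, *val1* by little. Its log2 fold change was 0.12 (SE 0.08, adjusted p = 0.248) in *val1* and did not pass the test. With library size alone it was 0.33 (adjusted p = 0.00765), where the median of all genes was 0.25. In those labelled *val2* it was 0.29 (SE 0.08, adjusted p = 0.0324), a rise that was lost under 7 of the 17 alternatives, among them the fits without WT replicate 1 (adjusted p = 0.0701), WT replicate 2 (0.193), *val2* replicate 1 (0.168) or *val2* replicate 2 (0.0899). The annotated *TPS1* overlaps 99 bases of AT1G78570, a gene with between 4846 and 8043 counts per library, and 429 bases of AT1G09827, both on the other strand, and whether the counting used strand is not stated. *ASN1*, *DIN10*, *TPS5* and *TPS6* also overlap a gene on the other strand, by 11, 82, 128 and 207 bases, of which those counted had at most 47 counts in a library.

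The class II genes *TPS8*, *TPS9* and *TPS11* fell in both mutants, more in *val1*. *TPS11* had 16.3 and 32.6 CPM in *val1* and 44.0 and 63.1 CPM in the *val2*-labelled libraries, against 116 and 181 CPM in WT. The genotypes did not overlap. *TPS11* had a log2 fold change of -2.59 (SE 0.32, adjusted p = 0.000224) in *val1*, and -3.18 without *val1* replicate 2. In the *val2*-labelled libraries it was -1.47 (SE 0.31, adjusted p = 0.0122), a call lost without WT replicate 2 (-1.11, adjusted p = 0.0786) or *val2* replicate 1 (-1.23, adjusted p = 0.109).

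*TPS8* had 38.7 and 60.8 CPM in *val1* and 74.4 and 96.7 CPM in the *val2*-labelled libraries, against 157 and 206 CPM in WT. Its genotypes did not overlap either. Its log2 fold change was -1.86 (SE 0.22, adjusted p = 0.000151) in *val1* and -1.08 (SE 0.21, adjusted p = 0.00944) in the *val2*-labelled libraries. *TPS9* had 18.8 and 25.5 CPM in *val1* and 29.1 and 38.0 CPM in the *val2*-labelled libraries, against 50.2 and 68.8 CPM in WT. All 4 mutant libraries were again below WT, and those of *val1* were lowest. On the log2 scale *TPS9* changed by -1.42 (SE 0.19, adjusted p = 0.00038) in *val1* and -0.83 (SE 0.19, adjusted p = 0.0174) in the *val2*-labelled libraries. In these libraries, both calls were lost without WT replicate 2 (adjusted p = 0.0638 for *TPS8* and 0.12 for *TPS9*) or *val2* replicate 1 (adjusted p = 0.0885 and 0.133).

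*TPS10* and *TPS6* fell less. *TPS10* had 29.3 and 42.0 CPM in *val1* and 26.5 and 28.9 CPM in the *val2*-labelled libraries, against 49.4 and 67.6 CPM in WT. Here the *val2*-labelled libraries were lowest, and the 3 genotypes did not overlap. Its log2 fold change was -0.71 (SE 0.18, adjusted p = 0.011) in *val1* and -1.08 (SE 0.18, adjusted p = 0.00534) in the *val2*-labelled libraries. The call in *val1* was lost without WT replicate 2 (-0.47, adjusted p = 0.0906) or *val1* replicate 1 (-0.48, adjusted p = 0.0544) and with limma on log2(TPM + 1) without a filter (adjusted p = 0.0517), and that in the *val2*-labelled libraries without *val2* replicate 1 (adjusted p = 0.0558).

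*TPS6*, a class II gene linked to cell shape and shoot branching, had 41.6 and 49.9 CPM in *val1* and 45.9 and 48.8 CPM in the *val2*-labelled libraries, against 71.0 and 71.9 CPM in WT. The fall was close to equal in the mutants. The log2 fold change of *TPS6* was -0.64 (SE 0.09, adjusted p = 0.000594) in *val1* and -0.59 (SE 0.09, adjusted p = 0.00422) in the *val2*-labelled libraries, and both passed the test under all 17 alternatives that were run.

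*TPS5*, a class II gene known for a part in heat tolerance, went the other way. It had 32.6 and 34.5 CPM in *val1* and 28.3 and 27.7 CPM in the *val2*-labelled libraries, against 23.7 and 18.7 CPM in WT. All 4 mutant libraries were above both WT libraries. The log2 fold change of *TPS5* was 0.66 (SE 0.12, adjusted p = 0.00152) in *val1*, which held under all 17 alternatives. Among the *val2*-labelled libraries it was 0.40 (SE 0.12, adjusted p = 0.0411), and 8 of the 17 alternatives lost this call, among them the fits without WT replicate 2 (0.24, adjusted p = 0.237), *val2* replicate 1 (adjusted p = 0.164), *val2* replicate 2 (adjusted p = 0.124), *val1* replicate 1 (adjusted p = 0.0535) and *val1* replicate 2 (adjusted p = 0.0536).

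Counted over the 10 genes, 6 were DEGs with lower expression in *val1*, namely *ASN1*, *DIN1*, *DIN10*, *TPS8*, *TPS9* and *TPS11*, where 9.81% of all tested genes were. In all, 8 of the 10 passed the test as lower in *val1*, against 22.1% of all tested genes, 1 passed as higher, against 23.6%, and 1 did not pass. In the *val2*-labelled libraries, 6 were DEGs with lower expression, *TPS10* in the place of *TPS9*, where 2.27% of all tested genes were, and 8 passed as lower, against 10.0%, and 2 as higher, against 8.69%. The 6 DEGs were 3 without WT replicate 2 and 2 without *val2* replicate 1, and in *val1* they stayed at 6 in number without any 1 library. In *val1*, 8 of the 10 genes lay below WT with no overlap of libraries and 2 above, where 34.3% and 40.0% of all tested genes did, and in the *val2*-labelled libraries the counts were again 8 and 2, where 30.8% and 31.1% of all tested genes did. The median log2 fold change of the 10 genes was -1.64 in *val1* and -1.08 in the *val2*-labelled libraries, against 0.04 and 0.00 over all tested genes. These comparisons share the WT libraries, so they are not independent of each other.

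The mutants were also compared directly. *DIN10* was lower in *val1* than in the *val2*-labelled libraries, with a log2 fold change of -1.84 (SE 0.36, adjusted p = 0.00379), under all 17 alternatives. *TPS11* (-1.12, SE 0.32, adjusted p = 0.0227), *TPS8* (-0.78, SE 0.21, adjusted p = 0.0203) and *TPS9* (-0.59, SE 0.19, adjusted p = 0.0412) were lower in *val1* as well. All 3 of these calls were lost without *val1* replicate 1 (adjusted p = 0.091, 0.0877 and 0.194) or *val2* replicate 2 (adjusted p = 0.161, 0.154 and 0.265), and without *val1* replicate 2 the value of *TPS11* was -1.72. Those of *TPS11* and *TPS8* were also lost with DESeq2 (adjusted p = 0.0756 and 0.0615), and that of *TPS9* under 7 of 17 alternatives. The other 6 genes did not pass the test, with *ASN1* at -0.55 (SE 0.25, adjusted p = 0.124), *DIN1* at 0.81 (SE 0.48, adjusted p = 0.225), *TPS10* at 0.37 (SE 0.18, adjusted p = 0.153), *TPS5* at 0.26 (SE 0.11, adjusted p = 0.107), *TPS1* at -0.17 (SE 0.08, adjusted p = 0.12) and *TPS6* at -0.05 (SE 0.09, adjusted p = 0.733). With 1 library fewer, *ASN1* passed at -0.99 (adjusted p = 0.0141) without *val1* replicate 2, and *TPS10* passed at 0.59 (adjusted p = 0.0291) without *val1* replicate 1. With library size alone, *TPS5* (0.40, adjusted p = 0.0242) and *TPS10* (0.50, adjusted p = 0.0446) passed. *DIN1* passed at 1.40 (adjusted p = 0.00667) without *val1* replicate 1 and turned to -0.38 (adjusted p = 0.459) without *val1* replicate 2. In this comparison, 2 of the 10 genes were DEGs with lower expression in *val1*, where 6.94% of all tested genes were, and 4 passed the test as lower, where 18.0% of all tested genes did. The 2 DEGs became 1 without *val2* replicate 2 and 3 without *val1* replicate 2.

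**Figure D2:**
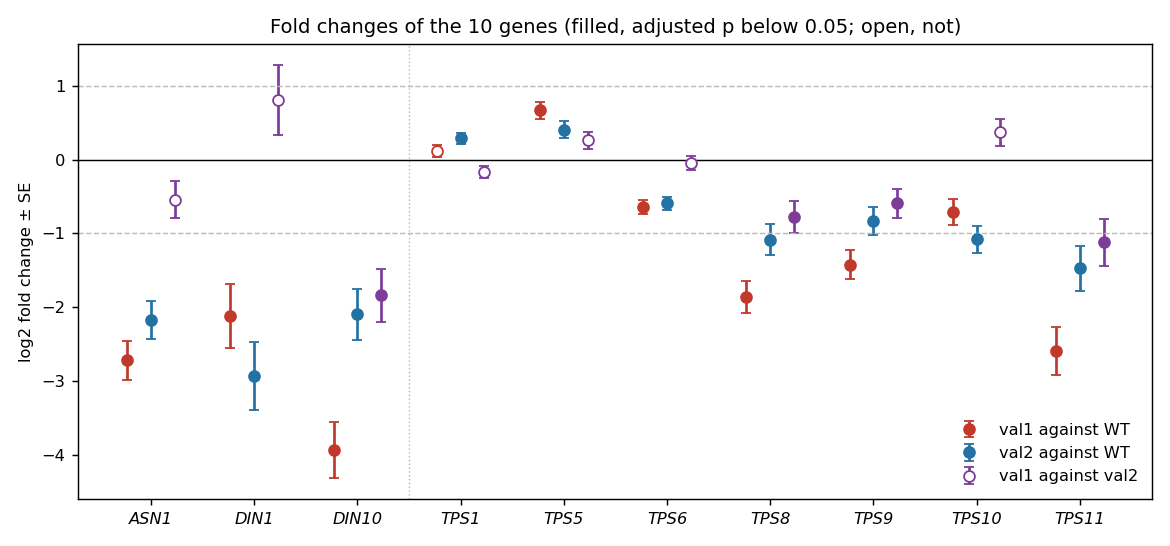
Log2 fold change of each gene, with its SE, in *val1* against WT, in the *val2*-labelled libraries against WT and in *val1* against those labelled *val2*, from 1 edgeR fit of the 6 libraries. Filled points have an adjusted p below 0.05, and dashed lines mark a 2-fold change. *DIN10* in *val1* is lowest, at -3.93, and *TPS5* in *val1* is the highest filled point, at 0.66.

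The replicates of a genotype were not equally high for these genes. The library numbered 2 was the higher one for 9 of the 10 genes in *val1*, for 8 in the *val2*-labelled libraries and for 8 in WT, where 48.7%, 49.8% and 53% of all tested genes were higher in it. For *DIN10*, its ratio to the other library was 1.72 in *val1*, 1.55 in the *val2*-labelled libraries and 1.98 in WT. For *TPS11* the ratio was 1.97 in *val1*, 1.43 in the *val2*-labelled libraries and 1.56 in WT. For *TPS1* it was 0.928 in *val1*, 0.957 in the *val2*-labelled libraries and 0.936 in WT, so the replicates of *TPS1* were closer to each other than those of *DIN10* and *TPS11*.

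Levels were compared between genes on the TPM scale, which is per length. In WT, *ASN1* (174 and 235 TPM) and *DIN10* (127 and 244 TPM) were the most abundant of the 10 genes, and their libraries overlapped each other and no other member. *TPS8* (74.5 and 93.4 TPM) and *TPS11* (61.5 and 93.5 TPM) came next and overlapped each other. *TPS1*, *DIN1*, *TPS6*, *TPS9* and *TPS10* followed, each overlapping its neighbour in this order, and *TPS5* (11.4 and 8.67 TPM) was lowest. In *val1* the order was another, with *TPS1* at the top (52.1 and 43.1 TPM), then *ASN1* (25.7 and 44.1 TPM), which overlapped it, and *DIN1* at the bottom (4.02 and 14.7 TPM). *DIN10* had 9.85 and 17.5 TPM there, against 127 and 244 TPM in WT. In the *val2*-labelled libraries, *TPS1* was again at the top (53.2 and 48.7 TPM), with *ASN1* (40.3 and 55.3 TPM) and *DIN10* (35.5 and 55.2 TPM) overlapping it, and *DIN1* was at the bottom (4.50 and 5.27 TPM).

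The summed level of the trehalose phosphate synthase genes was lower in the mutants, and *TPS1* took a larger part of it. The sum was taken over *TPS7* and the 7 genes described here, without *TPS4*, which was under 1 TPM in every library. It was 224 and 253 TPM in *val1* and 338 and 386 TPM in the *val2*-labelled libraries, against 472 and 525 TPM in WT. *TPS1* held 23.2% and 17.0% of this sum in *val1* and 15.7% and 12.6% in the *val2*-labelled libraries, against 9.39% and 7.28% in WT. *TPS8* to *TPS11* together held 24.4% and 34.1% in *val1* and 25.7% and 29.8% in the *val2*-labelled libraries, against 38.9% and 47.6% in WT. Neither mutant overlapped WT in either share, and no test was run on the shares.

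**Figure D3:**
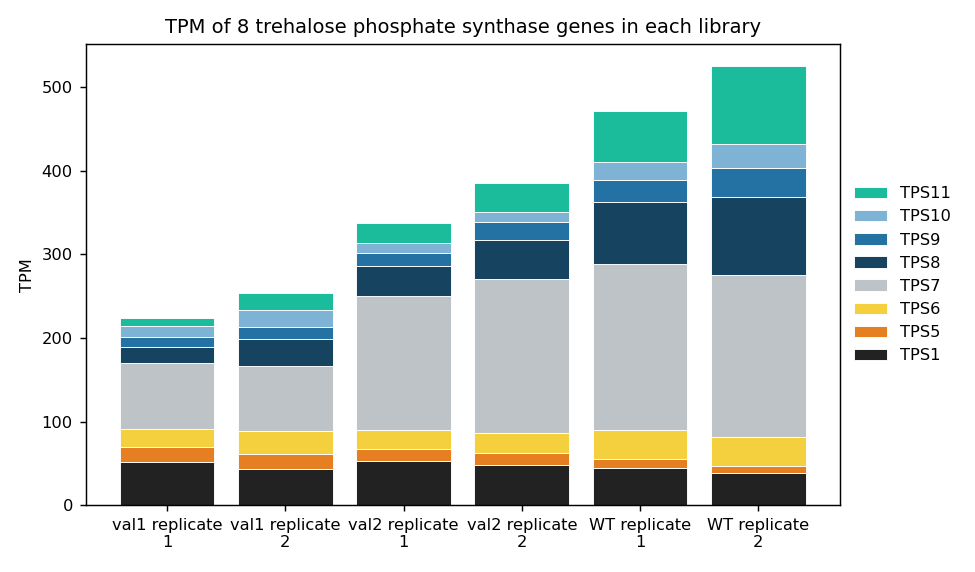
TPM (per length and library) of 8 trehalose phosphate synthase genes in each library, stacked from *TPS1* at the bottom to *TPS11* at the top, with *val1* on the left, the *val2*-labelled libraries in the middle and WT on the right. The total is lowest in *val1*, near 224 and 253 TPM, and highest in WT, near 472 and 525 TPM, while *TPS1* is of like height in all 6 bars.

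*TPS7*, the class II gene outside the group described here, was the most abundant of the family in every library. It had 154 and 153 CPM in *val1* and 349 and 395 CPM in the *val2*-labelled libraries, against 440 and 443 CPM in WT. It fell in *val1*, with a log2 fold change of -1.52 (SE 0.08, adjusted p = 2.1e-06), against -0.25 (SE 0.08, adjusted p = 0.0611 with edgeR and 0.0147 with DESeq2) in the *val2*-labelled libraries, and the direct comparison gave -1.28 (SE 0.08, adjusted p = 7.38e-06). *TPS2* and *TPS3* had no entry in the table of counts and so were not tested.

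Of 11 genes for trehalose phosphate phosphatases, which remove the phosphate from trehalose 6-phosphate, and for trehalase, 4 passed the test as lower and 1 as higher in *val1*, where 22.1% and 23.6% of all tested genes did, and 2 as lower and 1 as higher in the *val2*-labelled libraries, where 10.0% and 8.69% did. *TPPG* had 29.1 and 28.0 CPM in *val1* and 117 and 130 CPM in the *val2*-labelled libraries, against 170 and 207 CPM in WT, with log2 fold changes of -2.72 (SE 0.11, adjusted p = 9.54e-07) and -0.61 (SE 0.10, adjusted p = 0.00551). The trehalase gene *TRE1* had 5 and 9 counts in *val1*, against 26 and 23 counts in WT, with a log2 fold change of -1.80 (SE 0.48, adjusted p = 0.0141) that was lost without WT replicate 1 (adjusted p = 0.0916) or *val1* replicate 1 (adjusted p = 0.0808). *TPPI* (-1.56, adjusted p = 1.42e-05) and *TPPJ* (-1.03, adjusted p = 1.54e-05) were the other falls in *val1*. *TPPB* rose in *val1*, to 4.98 and 3.73 CPM, against 1.31 and 1.33 CPM in WT, a log2 fold change of 1.72 (SE 0.29, adjusted p = 0.00135). In the *val2*-labelled libraries the other fall was *TPPA* (-0.39, adjusted p = 0.0119) and the rise was *TPPE* (0.84, adjusted p = 0.00833). The median over the 11 genes was -0.03 in *val1* and 0.03 in the *val2*-labelled libraries. The 1 rise in *val1* was 4 with library size alone, a fit in which the median of all tested genes was 0.25. In the *val2*-labelled libraries, the call of *TPPA* was lost without WT replicate 2, *val2* replicate 1 or *val2* replicate 2. That of *TPPG* was lost without *val2* replicate 1, and that of *TPPE* without WT replicate 2 or *val2* replicate 1.

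Of 9 genes for the subunits of SnRK1 itself and for the kinases that activate it, 2 passed the test as lower and 2 as higher in *val1*, close to the 22.1% and 23.6% of all tested genes, with a median of 0.11. The regulatory subunit genes *AKINBETA1* and *KING1* were the lower ones, at 15.9 and 23.5 CPM and at 32.7 and 43.4 CPM in *val1*, against 33.4 and 48.4 CPM and 60.9 and 65.6 CPM in WT. Their log2 fold changes were -1.05 (SE 0.21, adjusted p = 0.0031) and -0.73 (SE 0.12, adjusted p = 0.00128). The catalytic subunit gene *KIN10* had 51.9 CPM in both *val1* libraries, against 41.8 and 41.5 CPM in WT, a log2 fold change of 0.32 (SE 0.07, adjusted p = 0.00544), and *AKINBETA2* was at 0.48 (SE 0.09, adjusted p = 0.00193). With library size alone, 5 of the 9 genes passed as higher. In the *val2*-labelled libraries, *AKINBETA1* (-0.84, adjusted p = 0.023) and *KING1* (-0.66, adjusted p = 0.00782) passed as lower and none as higher, against 10.0% and 8.69% of all tested genes. Without WT replicate 2, *val2* replicate 1 or *val2* replicate 2, none of these genes passed as lower.

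Among 9 bZIP genes of the C and S1 groups, the factors that act with SnRK1, 5 passed the test as lower in each mutant, where 22.1% of all tested genes did in *val1* and 10.0% in the *val2*-labelled libraries. In *val1*, 1 passed as higher, below the 23.6% of all tested genes. *bZIP53* had 151 and 166 CPM in *val1* and 276 and 293 CPM in the *val2*-labelled libraries, against 367 and 405 CPM in WT. *bZIP2* had 124 and 125 CPM in *val1* and 122 and 134 CPM in the *val2*-labelled libraries, against 246 and 317 CPM in WT. Their log2 fold changes in *val1* were -1.29 (SE 0.09, adjusted p = 5.88e-06) and -1.18 (SE 0.12, adjusted p = 5.62e-05), and in the *val2*-labelled libraries they were -0.44 (adjusted p = 0.00867) and -1.14 (adjusted p = 0.000617). *bZIP11* rose in *val1*, at 0.48 (SE 0.13, adjusted p = 0.0148), a call lost without WT replicate 1 (adjusted p = 0.0888) or *val1* replicate 1 (adjusted p = 0.0762). The same 5 genes fell in both mutants, and the other 3 were *bZIP1*, *bZIP25* and *bZIP63*. *bZIP63*, whose protein is a known target of SnRK1, was at -0.65 (SE 0.17, adjusted p = 0.0136) in *val1*, a call lost without WT replicate 2 (adjusted p = 0.0969) or *val1* replicate 1 (adjusted p = 0.0787), and -0.99 (SE 0.17, adjusted p = 0.00627) in the *val2*-labelled libraries. The 5 falls in the *val2*-labelled libraries were 2 without WT replicate 2, 1 without *val2* replicate 1 and 3 without *val2* replicate 2.

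Of 19 other genes known to rise in darkness or starvation, 14 passed the test as lower and 1 as higher in *val1*, against 22.1% and 23.6% of all tested genes, with a median log2 fold change of -0.95. In the *val2*-labelled libraries, 10 passed as lower and none as higher, against 10.0% and 8.69% of all tested genes, with a median of -0.70, but the count was 5 without WT replicate 2, 2 without *val2* replicate 1 and 4 without *val2* replicate 2. *PRODH1*, the proline dehydrogenase that breaks proline down, had 77.6 and 109 CPM in *val1* and 183 and 254 CPM in the *val2*-labelled libraries, against 439 and 715 CPM in WT. Its log2 fold changes were -2.62 (SE 0.26, adjusted p = 5.34e-05) and -1.40 (SE 0.25, adjusted p = 0.00624). AT3G15450 had 74.9 and 194 CPM in *val1* and 228 and 316 CPM in the *val2*-labelled libraries, against 643 and 915 CPM in WT, a log2 fold change of -2.53 (SE 0.38, adjusted p = 0.00071) in *val1* that was -3.38 without *val1* replicate 2. The exception was *DIN11*, a dioxygenase gene, which had 29.8 and 25.0 CPM in *val1* and 10.3 and 10.6 CPM in the *val2*-labelled libraries, against 12.7 and 17.0 CPM in WT. Its log2 fold change was 0.88 (SE 0.15, adjusted p = 0.00143) in *val1* and -0.51 (SE 0.15, adjusted p = 0.0516) in the *val2*-labelled libraries. The fall of *DIN11* in the *val2*-labelled libraries passed the test under 7 of the 17 alternatives.

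The closest relatives of *ASN1* did not fall with it. *ASN2*, another asparagine synthetase gene, had 127 and 133 CPM in *val1* and 118 and 99.7 CPM in the *val2*-labelled libraries, against 78.7 and 79.3 CPM in WT. The log2 fold change of *ASN2* was 0.72 (SE 0.09, adjusted p = 0.000249) in *val1* and 0.46 (SE 0.09, adjusted p = 0.00947) in the *val2*-labelled libraries. *ASN3* was at 0.55 (SE 0.11, adjusted p = 0.0031) in *val1* and 0.76 (SE 0.11, adjusted p = 0.00266) in the *val2*-labelled libraries. Among the 4 relatives of *DIN10*, *SIP2*, a raffinose-cleaving enzyme gene, fell with it, to 58.8 and 96.3 CPM in *val1* and 92.2 and 119 CPM in the *val2*-labelled libraries, against 197 and 348 CPM in WT. Its log2 fold change was -1.81 (SE 0.29, adjusted p = 0.000947) in *val1* and -1.37 (SE 0.28, adjusted p = 0.0122) in the *val2*-labelled libraries. *RS5* was at -0.78 (SE 0.15, adjusted p = 0.00806) in the *val2*-labelled libraries. Over these 6 genes, 1 passed the test as lower and 2 as higher in *val1*, where 22.1% and 23.6% of all tested genes did, and 2 as lower and 2 as higher in the *val2*-labelled libraries, where 10.0% and 8.69% did. The counts in the *val2*-labelled libraries were 0 and 1 without WT replicate 2 or *val2* replicate 1. Without *val2* replicate 2, the 2 falls were 1.

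Of 7 genes that sugar turns on, 2 passed the test as lower and 3 as higher in *val1*, where 22.1% and 23.6% of all tested genes did, and none as lower and 4 as higher in the *val2*-labelled libraries, where 10.0% and 8.69% did. The anthocyanin and flavonoid genes *DFR* (106 and 104 CPM in *val1*, against 30.7 and 45.9 CPM in WT) and *CHS* (149 and 122 CPM in *val1*, against 56.9 and 64.2 CPM in WT) rose, with log2 fold changes of 1.45 (SE 0.17, adjusted p = 0.000182) and 1.16 (SE 0.12, adjusted p = 7.71e-05). *GPT2*, a glucose 6-phosphate transporter gene that is strongly sugar induced, fell in *val1*, to 7.78 and 4.19 CPM, against 15.0 and 17.8 CPM in WT, at -1.47 (SE 0.28, adjusted p = 0.00245). *APL4* was at -0.33 (SE 0.10, adjusted p = 0.0291) in *val1*, a call lost under 7 of 17 alternatives, among them the fits without WT replicate 1 (adjusted p = 0.132), WT replicate 2 (adjusted p = 0.0552) and *val1* replicate 2 (adjusted p = 0.187). *APL3*, for a starch synthesis subunit as is *APL4*, rose in *val1* (1.11, adjusted p = 3.97e-05). The 2 falls in *val1* were 1 with library size alone and without WT replicate 2 or *val1* replicate 2. *DFR*, *CHS*, *APL3* and *APL4* were the rises in the *val2*-labelled libraries. These 4 rises in the *val2*-labelled libraries were 2 without WT replicate 1 and 1 without WT replicate 2 or *val2* replicate 1.

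**Figure D4:**
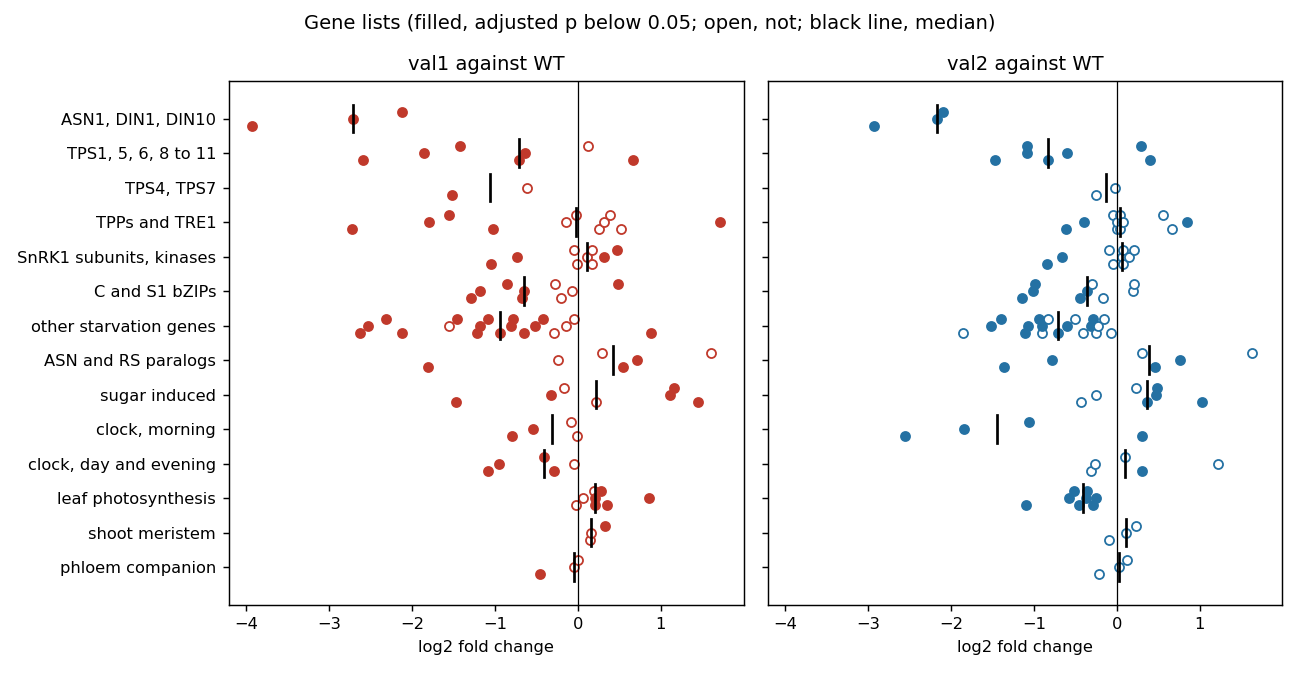
Log2 fold changes of the tested genes of 14 lists in *val1* against WT (left) and in the *val2*-labelled libraries against WT (right). Each point is a gene, filled where its adjusted p was below 0.05, and the black lines are medians. The starvation genes other than the 10 described here have medians of -0.95 and -0.70, while those of the SnRK1 genes lie at 0.11 and 0.07.

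Because starvation genes are known to respond to darkness, clock genes were read beside them. *CCA1*, a morning clock gene, had 180 and 137 CPM in *val1* and 49.1 and 44.4 CPM in the *val2*-labelled libraries, against 280 and 271 CPM in WT, and *LHY*, its partner, had 333 and 277 CPM in *val1* and 128 and 120 CPM in the *val2*-labelled libraries, against 459 and 432 CPM in WT. The log2 fold changes of *CCA1* were -0.79 (SE 0.12, adjusted p = 0.000733) in *val1* and -2.56 (SE 0.13, adjusted p = 1.58e-05) in the *val2*-labelled libraries. Its direct comparison gave 1.76 (SE 0.13, adjusted p = 1.34e-05), so that *CCA1* was higher in *val1* than in the *val2*-labelled libraries. The evening gene *TOC1* had 38.6 and 33.2 CPM in *val1* and 73.5 and 89.6 CPM in the *val2*-labelled libraries, against 75.7 and 76.8 CPM in WT, with a log2 fold change of -1.09 (SE 0.11, adjusted p = 6.43e-05) in *val1*, and *LUX*, of the evening complex, was at -0.96 (SE 0.18, adjusted p = 0.00242) there. Of 4 morning genes, 2 passed the test as lower in *val1* and 3 as lower and 1 as higher in the *val2*-labelled libraries, and of 5 tested day and evening genes 4 passed as lower in *val1* and 1 as higher in the *val2*-labelled libraries. Of all tested genes, 22.1% passed as lower in *val1*, and 10.0% as lower and 8.69% as higher in the *val2*-labelled libraries. *PRR9* (lower) and *PRR7* (higher) completed the morning genes in the *val2*-labelled libraries, *GI* and *ELF3* the evening genes in *val1*, and *GI* was the rise in the *val2*-labelled libraries. In *val1*, the call of *ELF3* was lost under 6 of the 17 alternatives and that of *GI* under 7. Both were lost with library size alone, with limma on TPM, and without WT replicate 2 or *val1* replicate 1. The rises of *PRR7* and *GI* in the *val2*-labelled libraries were lost under 4 and 5 of the 17 alternatives. They did not hold without any 1 of the WT or *val2* libraries. The part of the clock genes in the values of the starvation genes was not tested.

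The leaf photosynthesis markers moved apart in the mutants as well. Summed over 8 genes, they had 17380 and 16291 CPM in *val1* and 12790 and 11881 CPM in the *val2*-labelled libraries, against 16411 and 15439 CPM in WT. In *val1*, 5 of the 8 passed the test as higher and none as lower, where 23.6% and 22.1% of all tested genes did, and in the *val2*-labelled libraries all 8 passed as lower, where 10.0% did. The 5 were *LHCB2.1* and 4 Rubisco small subunit genes (*RBCS1A*, *RBCS1B*, *RBCS2B* and *RBCS3B*), near-identical copies among which reads may be split uncertainly. In *val1*, the call of *LHCB2.1* was lost under 2 of the 17 alternatives, and those of *RBCS1A* and *RBCS3B* under 4 each. Each of these calls was lost without WT replicate 2, where the log2 fold changes were 0.19, 0.17 and 0.19. In the *val2*-labelled libraries, the call of *RBCS1B* was lost under 7 of the 17 alternatives and that of *RBCS2B* under 2. Both of the latter were lost without WT replicate 1 or *val2* replicate 1. The most abundant, *LHCB1.3*, had 9450 and 8627 CPM in *val1* and 7376 and 6770 CPM in the *val2*-labelled libraries, against 9381 and 8933 CPM in WT. Of 3 phloem companion cell markers, *SUC2* alone passed as lower in *val1* (-0.45, adjusted p = 0.0155), where 22.1% of all tested genes did. This call was lost under 6 of the 17 alternatives, among them library size alone and the fits without WT replicate 1 or *val1* replicate 1. None passed in the *val2*-labelled libraries, where 10.0% of all tested genes passed as lower and 8.69% as higher. The most abundant, *AHA3*, had 66.5 and 52.2 CPM in *val1* and 69.3 and 64.9 CPM in the *val2*-labelled libraries, against 59.4 and 63.3 CPM in WT. The *ASN1*, *DIN1* and *DIN10* counts summed to 54.3 and 97.4 CPM in *val1* and 126 and 182 CPM in the *val2*-labelled libraries, against 512 and 853 CPM in WT, so the starvation sum was lower in both mutants and the leaf marker sum lower only in the *val2*-labelled libraries. The part of the leaf markers in these values was not tested.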

How the data were processed

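Shoot apices of *val1*, *val2* and WT were profiled by polyA RNA-seq, with groups taken from the genotype on the labels. After trimming with cutadapt and mapping with STAR (TAIR10), the authors deposited StringTie estimated counts per Araport11 gene, as whole numbers without normalization, and TPM values for 16383 genes, scaled for length and depth. Tool versions are not given in the sources used here. Of 24369 entries, 77 without a gene identifier, at most 0.00266% of the counts of a library, were left out. Counts were filtered with filterByExpr and scaled by TMM, and 1 edgeR 4.0.16 quasi-likelihood fit of 6 libraries in R 4.3.3 gave all adjusted p-values, with 3 residual degrees of freedom. The fit was tested on simulated data. With 2 replicates from pooled plants, p-values measure the spread between these libraries, which differed by more than counting error (chi-square per gene 9.45 to 12.1). Alternatives used DESeq2 1.42.0, other scalings and filters, limma 3.58.1 on TPM, a replicate block and 1 library fewer. Replicate-numbered pairs were checked. Sequences came from RefSeq TAIR10.1, with chromosomes of the same names. No 50-base word of the members' exons occurred elsewhere in the genome.

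The members and gene lists were chosen with earlier results of these data known. The text names the 10 members, *VAL1*, *VAL2*, of each other list up to 2 genes each way that passed the test in *val1*, by size of change, and the most abundant gene of each marker list. Genes that make up a count of 5 or fewer are named too, after their values were seen. The authors' own comparisons were not used.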

Additional observations from a re-analysis of the deposited data

How the results depend on the processing

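The 10 genes kept their direction against WT under all 17 alternatives in both mutants. DEGs were counted again without the fold threshold, at 9661 genes in *val1*, 3956 in the *val2*-labelled libraries and 7552 between them, against 3320, 673 and 2560 with it, and among the 10 genes at 10 in the *val2*-labelled libraries and 4 between the mutants. Limma on log2(TPM + 1) gave 369 DEGs in the *val2*-labelled libraries, and 368 without a filter. Between the mutants, DESeq2 and library size alone each left 1 DEG among the 10 genes. With 1 library left out, where the lone library of a genotype was assumed to vary like the others, the DEGs numbered from 2931 to 3291 in *val1*, from 388 to 704 in the *val2*-labelled libraries and from 2030 to 2532 between the mutants, and the DEGs among the 10 genes numbered 6, from 2 to 7 and from 1 to 3. Replicate numbers did not pair the libraries over all tested genes (correlations of deviations from 0.0546 to 0.0606). Among the 10 genes, the library numbered 2 was the higher one for 9 in *val1*, 8 in the *val2*-labelled libraries and 8 in WT. With a replicate block there were 3304, 700 and 2566 DEGs, of which 6, 6 and 2 were among the 10 genes. The block let *ASN1* (-0.58, adjusted p = 0.00149) and *TPS10* (0.34, adjusted p = 0.0262) pass between the mutants, and *TPS7* (adjusted p = 0.0465) and *STM* (adjusted p = 0.0418) in the *val2*-labelled libraries, and changed no other call of the genes named.

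Signs turned with library size alone for *LHCB1.3* in *val1* (0.20), *AHA3* in *val1* (0.165), *TRE1* in the *val2*-labelled libraries (0.0278) and *TPS6* between the mutants (0.0881, and with limma 0.0567 on log2(TPM + 1), filtered or not, and 0.0586 on log2(TPM + 0.1)). With 1 library left out, the ranges were -0.0875 to 0.0466 for *LHCB1.3* and -0.24 to 0.12 for *AHA3* in *val1*, -0.27 to 0.20 for *TRE1*, -0.56 to 0.0087 for *GPT2*, -0.052 to 0.24 for *TOC1* and -0.42 to 0.93 for *WOX5* in the *val2*-labelled libraries, and -0.38 to 1.40 for *DIN1* and -0.19 to 0.0692 for *TPS6* between the mutants. None of these passed the test in the fit reported and the causes were not tested. With 2 replicates, *DIN1* had the largest SE of the 10 genes in each comparison.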
